A study of Mus musculus with 6 samples.

Results

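The genes described here are 9 genes used to recognise lymphocytes: Ltb, the gene of lymphotoxin beta, and Il7r, Cd3e, Cd3g, Cd8b1, Cd79a, Cd79b, Ms4a1 and Lck. Every non-control probe that the array files name after any of them was taken, whatever its signal, which gave 13 of the 41174 non-control probes on the array. RNA came from pancreatic islets of male mice of 2 obese strains. The 3 NZO samples (NZO/HiBomDife, labelled diabetes-prone) have the replicate numbers 10, 11 and 12, and the 3 B6-ob/ob samples (C57BL/6.V-Lepob/ob, which lack functional leptin, labelled diabetes-resistant) have the numbers 4, 5 and 6. All mice ate a high-fat diet free of carbohydrate up to 18 weeks of age, and islets were taken 48 h after carbohydrate was put back into the diet. There was no lean strain and no group kept on the carbohydrate-free diet, so each comparison is between the strains at a single time. Whether a sample stands for a single mouse or for several pooled mice is not stated, so the p-values measure only the spread from sample to sample, part or all of which may be technical. Each array measures a whole islet preparation, in which fewer cells of a type and less RNA per cell cannot be told apart.

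Lymphotoxin beta is a membrane protein of the tumour necrosis factor family. It anchors lymphotoxin alpha, the product of Lta, at the surface of activated lymphocytes and of lymphoid tissue inducer cells. The complex binds the lymphotoxin beta receptor on stromal, epithelial and myeloid cells, which through the kinase NIK and the NF-kB subunits p100 and RelB switches on the chemokines and adhesion molecules that shape lymph nodes and the lymphoid aggregates of inflamed organs. Il7r encodes the interleukin-7 receptor alpha chain, which lymphocytes and innate lymphoid cells need for survival. Cd3e and Cd3g encode chains of the CD3 complex that carries the T cell receptor signal, Cd8b1 the CD8 beta chain of cytotoxic T cells, and Lck the kinase that starts that signal. Cd79a and Cd79b encode the paired signalling chains of the B cell receptor, and Ms4a1 the B cell surface protein CD20. Insulitis, the entry of such cells into islets, is a hallmark of autoimmune diabetes in mice.

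The probes that decide what can be said are 60 bases long, and the first 30 bases of those for Ltb and Il7r are given here, Ltb because it differed most and Il7r because its probes read differently. They come from the scanner files, run 5′ to 3′ and hold no capitals, since no part of them is singled out.
Ltb, chr17:35333097-35333156 (mm9, plus strand): atctgtattcattcctggaggatcgactga
Il7r, chr15:9435976-9436035 (mm9, minus strand), measured: atcaatcaactatgtttggatccagggaat
Il7r, chr15:9440943-9441002 (mm9, minus strand), not above background: cccacagagaaaactacgaccaaaagcaat
Il7r, chr15:9442570-9442629 (mm9, minus strand), not above background: tcaatcacgttcacaaaataagtatcatct
The measured Il7r probe starts at base 3088 of its transcript and the silent pair at bases 703 and 572 of theirs, so within this gene signal was seen only at the probe farthest along the transcript. No exon or UTR is named for these positions, since that annotation was not used here.

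The promoter of Ltb is shown because it is the member that differed most and because NF-kB is the factor family on both sides of lymphotoxin signalling. RefSeq (GRCm38.p6) gives the 250 bases before the Ltb start, with capitals on a match to the NF-kB motif GGGNNTTTCC, searched on both strands.
Ltb promoter, chr17:35194257-35194506 (GRCm38.p6, plus strand): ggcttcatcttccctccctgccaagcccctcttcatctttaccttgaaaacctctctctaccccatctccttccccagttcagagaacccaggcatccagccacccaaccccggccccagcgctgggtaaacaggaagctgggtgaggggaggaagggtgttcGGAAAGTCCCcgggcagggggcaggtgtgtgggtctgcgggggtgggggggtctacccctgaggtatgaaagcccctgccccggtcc
The match reads GGAAAGTCCC on this strand, from 87 to 78 bases before the start, and is the reverse complement of the motif. Of 32851 promoters in the RefSeq table, each 300 bases long, 1.63% held this motif. Among the genes described here 6 had a promoter in the table, with 7 promoters in all, and Ltb was the 1 gene with a match. Searched the same way, the ETS core GGAAGT, a site for the ETS factors of lymphocytes, was found at Cd3e, Cd79a, Il7r and Lck and in 23.8% of all promoters. The RUNX core TGTGGT was found at Il7r and Lck and in 16.8% of all promoters. These are matches of letters and not sites shown to be bound. Cd8b1, Cd79b and Ms4a1 were not in the table.

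Signal is given first as the processed intensity of the scanner software, a linear brightness after background subtraction, and then as a log2 level, which is log2 of that intensity minus the array's own 75th percentile. Differences are NZO minus B6-ob/ob on that log2 scale, with adjusted p-values from limma after Benjamini-Hochberg correction over 16418 genes. To be tested, a probe had to be flagged by the software as well above background on 3 or more of the 6 arrays, and a gene was called at an adjusted p under 0.05. The direction of every value rests on the labels of the scanner files. The authors' value table runs the other way: each of its 6 columns follows an array of the other strain (r of 0.944 to 0.971 across probes with that array, and -0.402 to -0.633 with the array of its own label), so the signed values below run opposite for the 5 members tested in that table. Arrays were alike in reach, with 23621 to 24710 probes well above background and no saturated spot. Islet hormone genes were checked first: Ins1, Ins2 and Gcg were well above background on every array and differed between strains by 0.07, 0.06 and 0.09, with adjusted p of 0.78, 0.855 and 0.72.

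Ltb was the member with the widest gap between the strains. Its intensity was 577, 670 and 450 on the NZO arrays 10, 11 and 12, against 29.3, 20.0 and 16.7 on the B6-ob/ob arrays 4, 5 and 6. All 6 values were well above background and the strains did not come near each other, the dimmest NZO array being above the brightest B6-ob/ob array by far. The log2 level was 0.51 ± 0.42 in NZO and -4.29 ± 0.56 in B6-ob/ob (SD, n = 3 each). The difference was 4.80 with a standard error of 0.34, or 27.9-fold with a 95% interval of 15.7 to 49.4, and limma's adjusted p was 0.000485. Counted from the most raised gene, Ltb ranked 41 of the 16418 genes tested. Within slides, which in these files are the glass slides that hold several arrays, the difference was 4.07 on slide 2 (NZO 10 and B6-ob/ob 4) and 5.58 on slide 3 (NZO 11 and B6-ob/ob 5 and 6). NZO 12 lay alone on slide 1. The call held in all 16 alternatives run on the scanner files, with differences of 3.0 to 5.12. The lowest came with normexp background correction and an offset of 50 followed by quantile normalisation.

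**Figure D1:**
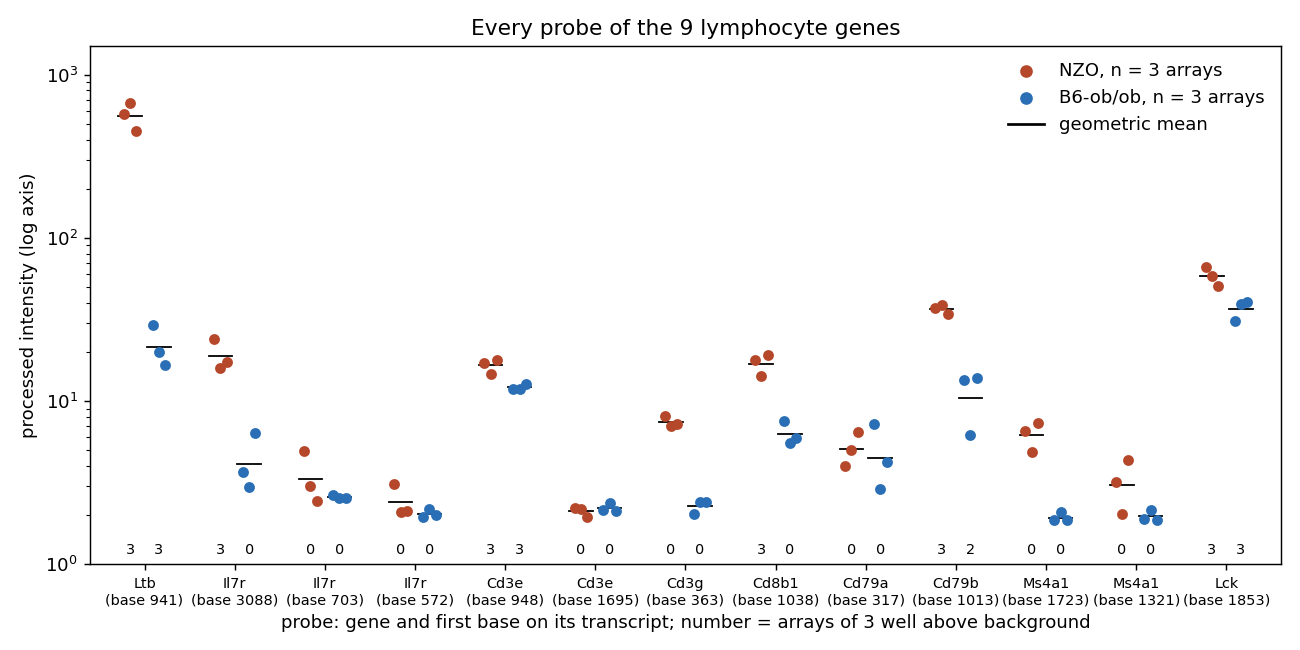
Processed intensity (log axis) of all 13 probes of the 9 lymphocyte genes, labelled by gene and by the probe's first base on its transcript, with 1 point per array, bars at the geometric mean and, at the foot, the number of arrays of 3 on which the probe was well above background. Ltb sits at 450 to 670 in NZO and at 16.7 to 29.3 in B6-ob/ob, while 7 of the 13 probes were above background on no array.

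Il7r was measured in NZO alone. Its brightest probe read 23.9, 15.9 and 17.4 on the NZO arrays and 3.71, 2.98 and 6.34 on the B6-ob/ob arrays, where it was not well above background. NZO lay wholly above B6-ob/ob. For such a probe only a bound can be given, the NZO mean against, on each B6-ob/ob array, the higher of the probe's own signal and the lowest signal that the array called well above background. By that rule Il7r was at least 2.09-fold higher in NZO (adjusted p = 0.0035 in the limma fit). The other probes of Il7r read 2.45 to 4.94 and 2.10 to 3.12 in NZO, 2.54 to 2.64 and 1.95 to 2.19 in B6-ob/ob, and the strains overlapped at both. The Il7r difference therefore rests on 1 probe of 3. Its log2 level in NZO was -4.39 ± 0.19 (SD, n = 3), and NZO read higher than B6-ob/ob within slide 2 and within slide 3.

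Among the T cell genes of the set, Cd8b1 behaved like Il7r. It read 18.0, 14.2 and 19.2 in NZO and 7.60, 5.52 and 5.96 in B6-ob/ob, where no array had it well above background. The gap was wide relative to the spread in either strain. Cd8b1 was at least 1.89-fold higher in NZO (adjusted p = 0.00476 in the limma fit, probe at chr6:71287068-71287126, mm9). Its log2 level in NZO was -4.53 ± 0.10 (SD, n = 3), and NZO read higher within slide 2 and within slide 3. B6-ob/ob 4, brightest of its strain for Cd8b1 as for Ltb, is the array on slide 2.

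Lck and Cd3e were above background on all 6 arrays, and the strains differed by less. Lck read 66.7, 58.4 and 50.5 in NZO and 30.8, 39.5 and 40.7 in B6-ob/ob, with no overlap. Its difference was 0.76 with a standard error of 0.15, or 1.69-fold (95% interval 1.31 to 2.17, limma adjusted p = 0.016, probe at chr4:129225846-129225905, mm9). Cd3e read 17.2, 14.6 and 18.0 in NZO and 11.9, 11.8 and 12.8 in B6-ob/ob, which do not overlap either, and its second probe was dim on all 6 arrays. The Cd3e difference was 0.54 with a standard error of 0.12, or 1.45-fold (95% interval 1.18 to 1.79, limma adjusted p = 0.0269, probe at chr9:44807254-44807313, mm9). Within slides 2 and 3 the gap was 0.88 and 0.93 for Lck, and 0.30 and 0.63 for Cd3e. The call on Cd3e was kept in 7 of 17 alternatives, reversed in the authors' value table and lost in 9. Slide as a fixed block was among these (0.49, adjusted p = 0.128), as was leaving out NZO 10, NZO 11, NZO 12, B6-ob/ob 5 or B6-ob/ob 6, with differences of 0.46 to 0.58 in these 5 fits. The Lck call was lost without NZO 10, NZO 11 or B6-ob/ob 5, at differences of 0.65 to 0.75.

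Cd3g, the partner of Cd3e in the CD3 complex, was well above background on no array. Its intensities were 8.08, 7.0 and 7.23 in NZO and 2.05, 2.39 and 2.41 in B6-ob/ob, so NZO lay above B6-ob/ob in every pair of arrays although neither strain reached the scanner software's limit. No fold is given for it. The Cd3g probe spans chr9:44781716-44782300 (mm9), 585 bases for a probe of 60, so that its match to the genome is split.

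Of the paired signalling chains of the B cell receptor, Cd79b alone could be measured. Cd79b read 37.0, 38.9 and 34.3 in NZO and 13.5, 6.24 and 13.8 in B6-ob/ob, where array 5 was not well above background. The NZO arrays were tight and wholly above the B6-ob/ob arrays, of which array 5 stood lowest. The difference was 1.90 with a standard error of 0.38, or 3.72-fold (95% interval 1.96 to 7.07, limma adjusted p = 0.0167, probe at chr11:106172780-106172839, mm9). The log2 level was -3.42 ± 0.25 in NZO and -5.32 ± 0.76 in B6-ob/ob (SD, n = 3 each). The difference was 1.22 within slide 2 and 2.45 within slide 3. The call was lost without NZO 11 (1.75, adjusted p = 0.0652) and with slide as a fixed block (1.93, adjusted p = 0.0772). Its partner Cd79a read 4.01, 5.02 and 6.46 in NZO and 7.29, 2.91 and 4.26 in B6-ob/ob, was above background on no array, and overlapped between strains, the highest value being on B6-ob/ob 4. The Cd79a probe spans chr7:25684353-25684610 (mm9), a split match as well. Ms4a1 had 2 probes (chr19:11325367-11325426 and chr19:11325827-11325886, mm9), neither above background on any array. The brighter read 6.60, 4.89 and 7.31 in NZO and 1.86, 2.09 and 1.86 in B6-ob/ob.

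In all, 6 of the 9 genes could be tested. Of these 6 were called higher in NZO and 0 lower, with a median difference of 1.71, while over all genes tested 13.2% were called higher, 9% lower, and the median difference was -0.03. In 6 of 6 the NZO arrays lay wholly above the B6-ob/ob arrays, which held for 20.7% of all genes. Il7r and Cd8b1 entered the test only through their NZO arrays, so they could hardly have come out otherwise, and the count is no support by itself. Over genes that were measured on 3 to 5 arrays, 28.3% were called higher. Ltb, Cd3e and Lck were measured on all 6, where 11.5% of genes were called higher. The other 3 genes, Cd3g, Cd79a and Ms4a1, were not measured. Tested with no filter on dim probes, Cd3g had a difference of 1.80 (limma adjusted p = 0.00093), Ms4a1 of 1.77 (0.00162) and Cd79a of 0.27 (0.847), values that compare signals below the scanner's limit. Only 2 of the 6 calls, those on Ltb and Cd79b, held with the normexp offset of 50, and 4 held with slide as a fixed block, those on Cd3e and Cd79b being lost. Without NZO 11 only 3 held, those on Ltb, Il7r and Cd8b1.

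**Figure D2:**
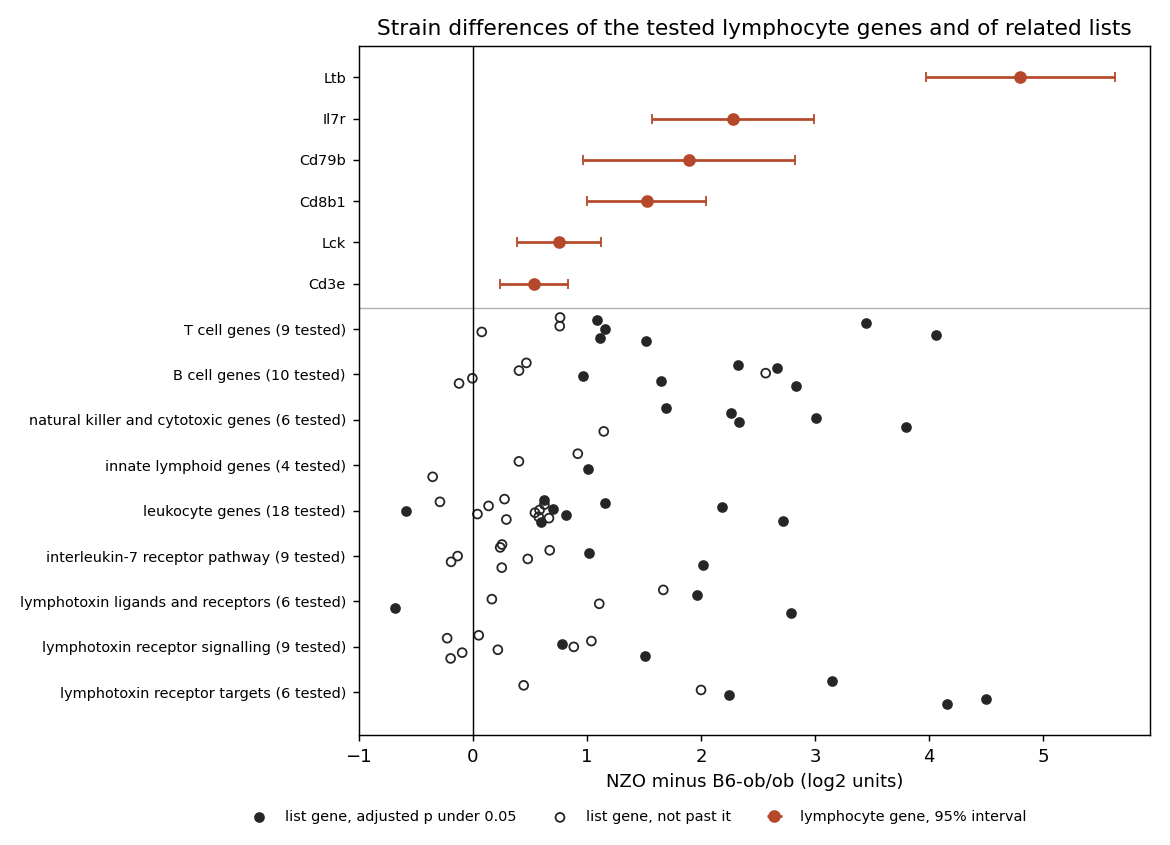
Differences between the strains (log2 units, NZO minus B6-ob/ob) for the 6 lymphocyte genes tested, with 95% intervals, and below the line for tested genes of related lists, filled where the adjusted p was under 0.05. Ltb stands at 4.80 and the other 5 at 0.54 to 2.28; Il7r and Cd8b1 are drawn at their fitted values although their B6-ob/ob signal was below background.

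The ligand that Ltb anchors was higher with it. Lta read 31.9, 36.6 and 26 in NZO and 4.89, 6.31 and 3.59 in B6-ob/ob, where it was not above background, and was at least 3.47-fold higher in NZO (limma adjusted p = 0.00152). Tnf, the neighbour of both genes in the genome, read 1364, 1210 and 549 in NZO and 500, 555 and 394 in B6-ob/ob. The lowest NZO value of Tnf fell among those of B6-ob/ob, and its difference of 1.11 missed the threshold (adjusted p = 0.0981). On the receptor side the order was reversed for Ltbr, which encodes the receptor of the complex. It read 901, 720 and 792 in NZO against 1440, 1198 and 1500 in B6-ob/ob, a pattern without overlap that 20.4% of all genes had in this direction. Ltbr fell by 0.69 in NZO (limma adjusted p = 0.032) and lost its call when any single array but B6-ob/ob 5 was left out. Tnfrsf1b, the second receptor for tumour necrosis factor, was 1.96 higher (adjusted p = 0.0183), but only at the brighter of its probes. The other probe differed by -0.23 and was above background on all 6 arrays too, so the probes of Tnfrsf1b disagreed. Tnfrsf1b also lost its call without NZO 10, NZO 11 or B6-ob/ob 5. Of the 7 ligands and receptors listed 6 were tested, of which 2 were higher and 1 lower, beside 13.2% and 9% of all genes. Lta entered the test only through its NZO arrays, so it could hardly have come out otherwise. Over genes measured on 3 to 5 arrays 28.3% were called higher. Of the 4 listed genes measured on all 6 arrays 1 was higher, beside 11.5% of such genes, and 1 was lower.

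Of 9 genes that carry the signal of the receptor, 2 were called higher and 0 lower, with a median of 0.22. Over all genes 13.2% were called higher, and 11.5% of those measured on all 6 arrays, as these 9 were. These were Birc3, which encodes the ubiquitin ligase cIAP2 (1.51, adjusted p = 0.0148), and Nfkbie, an inhibitor of NF-kB (0.78, adjusted p = 0.0326). Both were lost without NZO 11, NZO 12 or B6-ob/ob 5, and without any of these the list had 0 calls, against 4 without B6-ob/ob 4. Among genes that the receptor is known to switch on, 6 could be tested. Of the 6, 4 were higher and 0 lower, with a median of 2.70. Only 4 of these targets were measured on all 6 arrays, and 3 of those were higher. Over genes measured on 3 to 5 arrays 28.3% were called higher. Ccl19, a chemokine that draws T cells and dendritic cells, read 7671, 4713 and 4675 in NZO and 482, 384 and 194 in B6-ob/ob. Its difference was 4.16 (adjusted p = 0.00132), both of its probes gave it, and the call held in all 16 alternatives on the scanner files. Ccl21a, a related chemokine, had a difference of 4.50 (adjusted p = 0.0166) with 1 of the 3 B6-ob/ob arrays above background. It lost its call without NZO 12 or B6-ob/ob 5, and is uncertain as a gene because near-identical copies lie beside it. The adhesion molecules Vcam1 and Icam1 were higher by 3.15 and 2.25 (adjusted p = 0.038 and 0.0464 in limma), and both lost the call when any array but B6-ob/ob 4 was left out. B6-ob/ob 4 read 352 for Vcam1 and 5212 for Icam1, against 44.1 to 104 and 1254 to 1518 on the other B6-ob/ob arrays, so this array was nearest to NZO. Madcam1, Glycam1 and Cxcl13 are the targets most tied to lymphoid tissue: Madcam1 had a difference of 2.00 (adjusted p = 0.0676), and Glycam1 and Cxcl13 were above background on no array. Of the 6 targets 1 was called with slide as a fixed block, 1 without NZO 12 or B6-ob/ob 5, 2 without NZO 10, NZO 11 or B6-ob/ob 6, and 5 without B6-ob/ob 4.

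**Figure D3:**
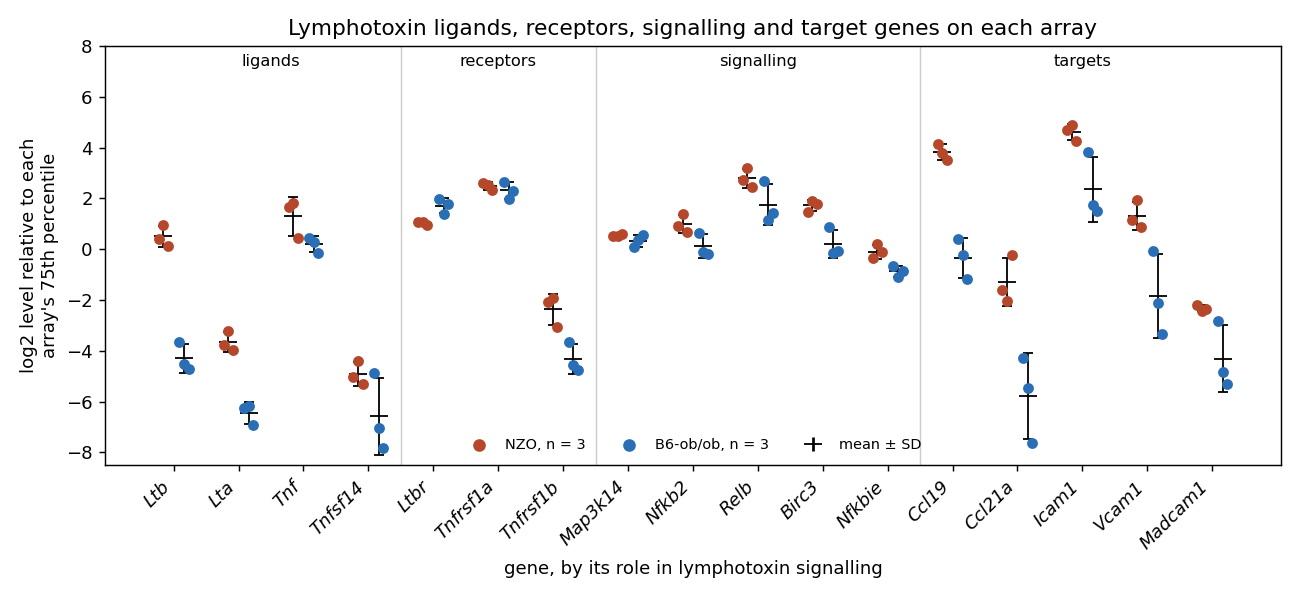
Log2 level relative to each array's 75th percentile for ligands, receptors, signalling genes and targets of the lymphotoxin pathway, 1 point per array with mean and SD (n = 3 per strain). NZO lies above for Ltb, Lta and Ccl19 and below for Ltbr, and the highest B6-ob/ob point of Vcam1, Icam1 and Madcam1 is array 4.

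Of 9 genes tested in the pathway of Il7r 2 were higher and 0 lower (median 0.26), against 4 higher without B6-ob/ob 4 and 1 without NZO 11 or NZO 12. All 9 were measured on all 6 arrays, where 11.5% of genes were called higher. Cish, a feedback inhibitor switched on by STAT5, was 2.02 higher (adjusted p = 0.0163), a call lost without NZO 11 or NZO 12, and Jak3, the kinase of the shared cytokine receptor chain, was 1.02 higher (adjusted p = 0.0101). The shared chain itself, Il2rg, had a difference of 0.48 (adjusted p = 0.242). Il7, the ligand, was above background on no array.

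Beyond Cd3e, Cd8b1 and Lck, the T cell list had 22 genes with a probe, of which 9 could be tested and 8 were dim on every array. Of the 9, 6 were higher in NZO and 0 lower, with a median of 1.11, beside 13.2% higher over all genes. Cd2, Icos and Tcra entered the test only through their NZO arrays, so they could hardly have come out otherwise. Over genes measured on 3 to 5 arrays 28.3% were called higher, and the count is a description. Of the 4 measured on all 6 arrays 2 were higher, and the 6 calls fell to 4 with slide as a fixed block. Icos, a costimulator of activated T cells, read 61.8, 30.1 and 46.4 in NZO and 4.96, 2.20 and 2.06 in B6-ob/ob, where it was not above background. It was at least 4.92-fold higher (limma adjusted p = 0.00198). Tcra, the T cell receptor alpha locus, was at least 3.32-fold higher at 1 of its 3 probes, the others being dim on every array. Lat, the adaptor that Lck's signal reaches, Cd6 and Thy1 were higher by 1.16, 1.11 and 1.09. The call on Lat was lost with slide as a fixed block (adjusted p = 0.0624). Those on Cd6 and Thy1 were lost when any array but B6-ob/ob 4 was left out, and Thy1 marks stromal cells as well. Other defining T cell genes were at or below background: Cd4, Cd8a, Cd28 and Foxp3 on all 6 arrays, Cd247 on all but B6-ob/ob 5, and Cd3d on all but 2 NZO arrays. Zap70, the kinase after Lck, had a difference of 0.77 (adjusted p = 0.129). Cd8a encodes the alpha chain that pairs with the product of Cd8b1, and neither strain had it above background.

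The B cell list had 25 genes with a probe, of which 10 could be tested and 11 were dim on every array. Of the 10, 5 were higher in NZO and 0 lower, with a median of 1.31, beside 13.2% higher over all genes. Pou2af1 entered the test only through its NZO arrays. Over genes measured on 3 to 5 arrays 28.3% were called higher. Blnk, the adaptor after the B cell receptor, read 1784, 2003 and 2101 in NZO and 278, 286 and 314 in B6-ob/ob. Its difference of 2.84 (adjusted p = 0.000255) held in all 16 alternatives. Sdc1, found on plasma cells and on epithelium, and Ebf1, found in B cells and in stroma, were higher by 2.32 and 1.65, and Pou2af1, a coactivator of B cells, was at least 2.75-fold higher. Pax5 and Blk, like Ms4a1 and Cd79a, were not above background on any of the 6 arrays. The list is mixed in this respect, since 8 of its genes were above background on all 6, of which 3 were called higher. Ebf1 was above background on 2 of the 3 B6-ob/ob arrays. The 5 calls fell to 3 with slide as a fixed block.

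Cytotoxic and natural killer genes had few members in range, with 6 of 13 tested and 7 dim on every array. Of the 6, 5 were higher and 0 lower. These 5 passed the filter mainly or wholly through NZO arrays, among such genes 28.3% were called higher, and the 1 gene measured on all 6 arrays was not called, so the count is a description. Gzmb, the protease granzyme B, read 88.6, 51.6 and 71.4 in NZO and 12.1, 5.22 and 2.34 in B6-ob/ob, and the fit gave a difference of 3.80 (adjusted p = 0.0083), with 1 of the 3 B6-ob/ob arrays above background. Il2rb, a chain of the receptors for interleukins 2 and 15, had a difference of 2.33, again with 1 B6-ob/ob array above background. Nkg7, Tbx21 and Klrd1 were at least 3.85-fold, 2.53-fold and 2.35-fold higher. Those 5 calls held without any single array. With the normexp offset of 50, 4 of the 6 genes were called higher, and the list's median was 0.54 in place of 2.30. Perforin (Prf1) and granzyme A (Gzma) were above background on no array. Of 4 innate lymphoid genes tested, Id2 alone was called, 1.01 higher, and it is expressed in many cell types.

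The general leukocyte markers showed smaller gaps in part. Ptprc, which encodes CD45, read 142, 95.9 and 99.96 in NZO and 53.0, 85.6 and 98.5 in B6-ob/ob, and its difference of 0.63 missed the threshold (adjusted p = 0.0764). On the scaled log2 level the NZO values, -1.61, -1.84 and -2.03, lay above the B6-ob/ob values, -2.80, -2.41 and -2.16. Of 18 leukocyte genes tested 7 were higher and 1 lower, with a median of 0.59, beside 13.2% and 9% over all genes. Ccr7, among the 7, entered the test only through its NZO arrays, so it could hardly have come out otherwise. Of the 14 measured on all 6 arrays 6 were higher, beside 11.5% of such genes, and 1 was lower. Itgb7, an integrin chain that binds the product of Madcam1, was 2.19 higher and Rac2 1.16 higher, both held without any single array, and Ccr7, the receptor of Ccl19 and Ccl21a, was at least 3.81-fold higher. Ccr7 lost its call without any NZO array or without B6-ob/ob 5. Ikzf3, a lymphoid transcription factor, fell by 0.58 in NZO, a call lost without NZO 11 or B6-ob/ob 5. That value rests on its brightest probe alone. Its other probes were above background on no NZO array, and 1 of them was on 2 B6-ob/ob arrays. The list's count dropped to 2 without NZO 10, NZO 11 or B6-ob/ob 5.

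Markers of other cells that an islet preparation can hold also differed between the strains. The summed signal of a list is given as a percentage of the array's 75th percentile. Counts of genes called higher stand beside 13.2% over all genes. For acinar genes it ran from 209091% to 294555% on the NZO arrays and from 42279% to 116121% on the B6-ob/ob arrays, and 14 of 17 were called higher (7 with slide as a fixed block, 8 without NZO 12 or B6-ob/ob 5, 9 without NZO 11). For stromal genes it ran from 6955% to 7916% and from 1534% to 2921%, with 12 of 13 higher. Both lists were thus above in NZO on every array. Of the genes measured on all 6 arrays, 13 of 16 acinar and 10 of 11 stromal genes were called higher. Macrophage and myeloid genes summed to 2296% to 4703% in NZO and to 1232% to 1480% in B6-ob/ob, with 6 of 15 higher (3 without NZO 10, NZO 11 or B6-ob/ob 5). Ductal sums overlapped, at 54059% to 75509% and 37998% to 73862%, with 5 of 13 higher. Among the 5, Muc1 and Cftr entered the test only through their NZO arrays. Of the 10 ductal genes measured on all 6 arrays 2 were higher, beside 11.5% of such genes. The brightest genes in the ductal sum, Krt8 and Krt18, differed by 0.02 and 0.25 and were not called. Among the 5 called, Krt19 and Sox9 were dimmer and higher in NZO by 4.37 and 3.62. Endothelial sums were 8540% to 10247% and 7419% to 7649%, with 3 of 12 higher. Islet endocrine sums overlapped at 399605% to 457820% and 390177% to 463625%, with 0 higher and 1 lower of 11. T cell sums were 438% to 517% and 260% to 364%, and B cell sums 787% to 877% and 204% to 209%. Natural killer and cytotoxic sums overlapped, at 230% to 554% and 98.8% to 301%. Leukocyte sums did too, at 712% to 916% and 763% to 818%. B6-ob/ob 4, the array of that strain with the most Ltb, also had its highest acinar and stromal sums. In NZO the orders differed: Ltb was highest on array 11, while the acinar and stromal sums were highest on array 12. The ductal sums had the order of Ltb on the arrays of both strains, 75509%, 58978% and 54059% on NZO 11, 10 and 12 and 73862%, 54655% and 37998% on B6-ob/ob 4, 5 and 6, and the macrophage sums had it in NZO. The part of these other cells in the differences of the lymphocyte genes was not tested.

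**Figure D4:**
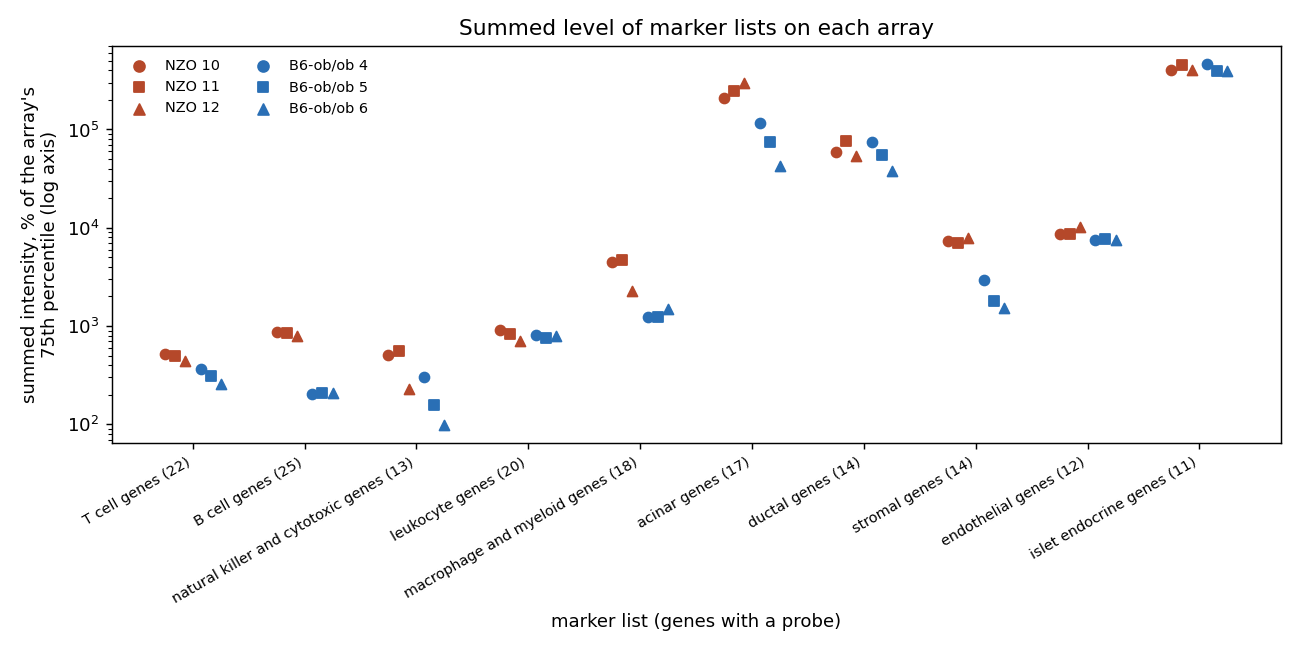
Summed processed intensity of the marker lists on each array, as a percentage of that array's 75th percentile (log axis), with the number of genes that have a probe in brackets and 1 symbol per array. Acinar, stromal, macrophage, endothelial, T cell and B cell sums are above on every NZO array, while natural killer, ductal, leukocyte and islet endocrine sums overlap.

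Over the 6 arrays the pattern of Ltb was shared by many genes. Of 1630 genes that were measured on all arrays and differed by at least 1, 889 had a Pearson r above 0.9 with Ltb. With 3 arrays a strain, such an r mostly restates the strain difference, and it is given as a description. The nearest 5 were Ets1, a transcription factor abundant in lymphocytes and endothelium, with r = 0.9993, Mmp14, a membrane-bound matrix protease, with 0.9992, Asap2 (named Ddef2 in the files), a regulator of small GTPases, with 0.9988, C4b, complement component 4, with 0.9986, and Tgif1, a homeobox repressor, with 0.9986. They share with Ltb the order of the arrays within each strain, highest on NZO 11 and lowest on NZO 12, and highest on B6-ob/ob 4 and lowest on B6-ob/ob 6. They were picked for the highest r, so the shared order follows from that choice and is no separate finding. Their differences ran from 1.23 for Asap2 to 3.77 for C4b.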

How the data were processed

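Islet RNA of 3 NZO and 3 B6-ob/ob samples was hybridised to 1-colour Agilent mouse arrays (design 014868), 1 array a sample. The deposited scanner files hold the processed intensity of each spot, background-subtracted by the scanner software, Feature Extraction (version 10.5.1.1 according to the headers, 9.1 in the submitters' processing notes), with probe positions on mm9 per the file headers. The authors' value table, with intensity values for 33150 probes, of which 33074 matched, served as a further setting; the columns hold linear, uncentred values (medians 21.3 to 22.4), while its direction stays unknown.

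Control and flagged spots (61 to 76 an array) were left out, log2 intensity was lowered by each array's 75th percentile, and the brightest kept probe stood for a gene of the files. Probes were kept if well above background on at least 3 arrays, which left 24628 probes and 16418 genes. Strains were compared with limma 3.58.1 in R 4.3.3 (lmFit and eBayes, all 6 arrays, no covariate, two-sided, Benjamini-Hochberg, threshold 0.05) after the fit was tested on simulated data. The number of arrays limits the precision.

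Alternatives changed normalisation, filter, probe summary, slide, prior, array weights and each array in turn. Every probe of the members is named. From the pathway and marker lists, up to 3 called genes with the largest difference and up to 3 with the greatest bound in each direction are named, plus a few genes at any level, 1 of which is not reported here; for some lists only their counts and sums are given. Members and lists were chosen with earlier results of these data known. Named after their values were seen were Cd28, Foxp3, Pax5, Blk, Madcam1, Glycam1, Cxcl13, Il7, Prf1 and Gzma. For 8104 of 41174 probes the file's name was kept because no reference symbol matched.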

Additional observations from a re-analysis of the deposited data

How the results depend on the processing

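Ltb kept its direction and its call in all 16 alternatives on the scanner files. In the authors' value table, read as labelled, every member present was reversed: Ltb at -4.76, Cd79b at -1.83, Cd8b1 at -1.46, Lck at -0.71 and Cd3e at -0.47, so 0 members were called higher and 5 lower; the kept Il7r probe is not used from that table. Members called higher numbered 2 with the normexp offset of 50, 3 of 3 with the requirement of all 6 arrays, and 3 to 6 when single arrays were left out, 3 without NZO 11. Over all genes, array weights gave 3662 higher and 3353 lower in place of 2165 and 1478, and slide as a fixed block gave 814 lower. Leaving out single arrays gave 1298 to 2217 higher and 635 to 1560 lower, with the lowest counts without B6-ob/ob 5. Scaling by each array's median moved the median of all genes to -0.11 and no direction among the members. No paired analysis was possible because the strains share no replicate number; slides, of which 2 hold both strains, were used as blocks instead. Signal over background limits 7 of the 13 probes, which were dim on every array. The cause of these changes was not tested.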

Other observations

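A probe of Il7r that was dim on every array of the scanner files (chr15:9440943-9441002, mm9, 2.45 to 4.94) stood at 9.28 to 13.9 in the columns of the authors' value table labelled B6-ob/ob and at 2.54 to 4.50 in those labelled NZO. The Ltb probe stood at 453 to 790 and at 16.2 to 32.4 in the same columns. Lck stood at 47.5 to 69.2 and at 34.3 to 38.6 in the same columns, against 30.8 to 40.7 and 50.5 to 66.7 on the scanner arrays labelled B6-ob/ob and NZO.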
